A study of Mus musculus with 8 samples.

Results

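Stromal cells that carry transcripts of Otor and Rarres1 were followed in single-cell RNA-seq libraries of the mouse organ of Corti and the tissue dissected with it. A barcode, the tag of 1 droplet, was counted as an Otor and Rarres1 cell when it held at least 4 of the 7 transcripts Otor, Rarres1, Kcnk3, Mmp11, Col13a1, Emilin2 and Wif1, and no transcript of Ptprc, Pecam1 or Epcam, which mark leukocytes, endothelium and epithelium. Barcodes with at least 500 detected genes and less than 25% of their unique molecular identifiers (UMIs, each a tag on 1 captured transcript) from mitochondrial genes were used. The rule found 1422 of 6023 such barcodes, 23.6%. The rule reads the measured counts, so the levels of these 10 genes describe how the cells were found and are given without a test.

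All 8 libraries came from animals that carried Fgfr3iCre+, an inducible Cre, together with the transgene Atoh1-HA+, the reporter Chrna9-GFP+ and the Cre reporter Rosa26-CAG-loxP-stop-loxP-tdTomato+. Coch P12 (n = 2) and Coch P33 (n = 1) were not injected with tamoxifen and were taken at postnatal days 12 and 33. Coch + Tmx P26 (n = 3) and Coch + Tmx P33 (n = 2) received tamoxifen at postnatal days 12 to 13 and were taken at days 26 and 33. Fgfr3 drives this Cre in pillar and Deiters' supporting cells, so induction of Atoh1 was aimed at cells other than those described here. The labels do not say whether the libraries of a group came from separate animals, and p-values below measure the spread between these libraries. Apart from the single Coch P33 library, age and tamoxifen differed together.

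The connective tissue of the cochlea is made by several kinds of mesenchymal cells: fibrocytes of the spiral ligament and spiral limbus, mesothelial-like cells that line the perilymph spaces, among them the tympanic border cells under the basilar membrane, and cells of the surrounding bone. Otor encodes otoraplin, a small secreted protein first known from the cochlea, and Coch encodes cochlin, an abundant secreted protein of cochlear fibrocytes. Wnt signalling acts through β-catenin and LEF/TCF factors and switches on its own inhibitors, such as Axin2, Nkd1 and Notum, while BMP signalling acts through SMAD factors and switches on the Id genes and the inhibitor Smad6.

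The Otor and Rarres1 cells were most frequent in Coch P12. They were 555 of 1382 barcodes (40.2%, 95% exact binomial interval 37.6 to 42.8%) and 323 of 881 (36.7%, 33.5 to 39.9%) in the 2 Coch P12 libraries. The 6 later libraries held 52 to 129 of them, 8.81 to 21.5% of their barcodes, with the highest share in Coch P33. The shares of the 2 ages did not overlap, and Coch P12 supplied 878 of the 1422 cells (61.7%). The share follows what was dissected as well as what was there, and free RNA can lend the 7 transcripts to other droplets, so it was not tested. With each barcode thinned to 2000 UMIs the means were 27.7% in Coch P12 and 9.35% later, against 38.4% and 14.6% unthinned.

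Transcripts of the chosen genes were also found in barcodes with macrophage markers in both Coch P12 libraries, and in a larger share of these in replicate 2. Among 843 barcodes with at least 3 of 6 macrophage markers, a type that should lack Otor, 37.3% of those in Coch P12 replicate 1 and 89.7% in replicate 2 held an Otor UMI, at median depths of 5021 and 14689 UMIs. Their Otor level was 532 and 2709 CPM (UMIs of the gene per 1000000 UMIs summed over the set). The Otor and Rarres1 cells had an Otor UMI in 98.1 to 100% of cells per library. The macrophage barcodes also held Emilin2 in 44.6% and 95.4% and Kcnk3 in 6.02% and 32.6%. Whether these UMIs came from free RNA or from droplets with several cells was not tested.

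Barcodes just outside the rule, with 3 of the 7 transcripts, numbered 667, and a median of 0.179% of their UMIs came from the 7 genes. Those just inside it, with 4 of the 7, numbered 487 and had a median of 0.637%, while the 345 with all 7 had 2.70%. A narrower set was therefore also used, of cells with at least 0.5% of their UMIs from the 7 genes, here called marker-rich cells. It held 1137 of the 1422 (80.0%), and 40 cells lay between 0.4 and 0.6%. This limit was chosen after seeing the data, and it is a limit on 1 score, with no cell type given to either side. In Coch P12 replicate 2, 45 cells lay between 0.1 and 0.2%, 8 between 0.3 and 0.4%, 9 between 0.4 and 0.5% and 77 between 2 and 3%. Cells below the limit carried more transcripts of other types in Coch P12, with osteoblast genes at a summed 4705 and 5993 CPM against 59.9 and 145 CPM above it, and glial genes in replicate 2 at 13220 against 1592 CPM. Of the Coch P12 cells 490 of 555 and 204 of 323 were marker-rich.

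**Figure D1:**
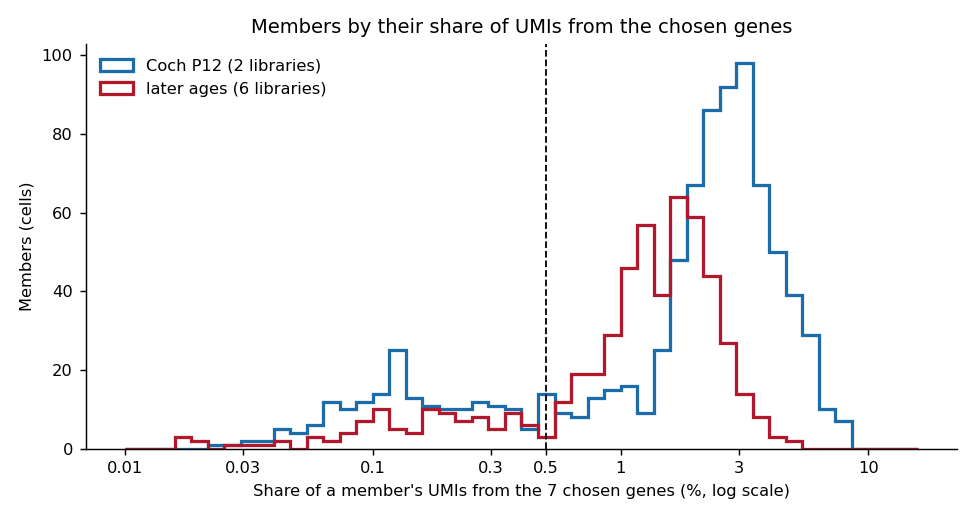
Histogram of the percent of a cell's UMIs that came from the 7 chosen genes (log axis) for the Otor and Rarres1 cells of Coch P12 and of the later libraries, with a dashed line at 0.5%. Of 1422 cells, 1137 lie at or above the line and 285 below it, and both ages show a main peak above it.

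Markers of stroma and of other types were counted. Of the 1422 cells, 1065 (74.9%) held at least 2 of the 7 stromal markers Col1a1, Col1a2, Col3a1, Dcn, Lum, Pdgfra and Pdgfrb. The same count gave 87.4% for 5 erythroid and 42.4% for 6 endothelial markers. It gave 31.0% for 5 glial, 15.3% for 5 osteoblast and 15.2% for 6 macrophage markers. The stromal share was 71.4% in the marker-rich cells and 88.8% in the remaining cells. Holding 2 markers therefore does not establish identity by itself. Pdgfra was at 117 to 244 CPM and Pdgfrb at 59.7 to 119 CPM per library, whereas Col1a1 did not exceed 7.2 CPM and Lum 20.1 CPM. At least 2 of the 5 fibrocyte markers Coch, Otos, Pou3f4, Tbx18 and Car3 were held by 93.3%, a share not counted in other barcodes. Few cells held Otos or Car3. In marker-rich cells of the 2 Coch P12 libraries, thinned to 3000 UMIs, 2.45% and 10.3% held Otos and 6.74% and 12.25% Car3. Pou3f4 and Tbx18, both transcription factors of the otic mesenchyme, were at 350 to 591 and 213 to 334 CPM. The other type I collagen chain gene, Col1a2, was at 1828 and 1885 CPM in Coch P12 and 243 to 650 CPM later. Emcn, known as an endothelial sialomucin, was high at 1227 to 2533 CPM, while the endothelial genes Cldn5 and Egfl7 did not exceed 3.1 and 14.1 CPM. Of the 6 cartilage markers listed, Comp and Matn1 had no UMI (0 of 1422 cells, which allows a share of up to 0.211% of cells with a UMI) and Acan did not exceed 3.8 CPM, while Col2a1 was at 713 and 917 CPM and Col9a1 at 479 and 499 CPM in Coch P12. At least 2 of the 6 were held by 635 cells (44.7%), and their summed level was 1196 and 1436 CPM in Coch P12. Cycling cells, with a UMI of Mki67 or Top2a, were 30 (2.11%).

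Transcripts of other cell types differed between libraries. The summed level of 5 glial genes was 5740 CPM in Coch P12 replicate 2, and the range over all 8 libraries started at 62.3 CPM. Erythroid genes summed to 1192 to 41150 CPM, osteoblast genes to 58.0 to 2231 CPM and macrophage genes to 50.2 to 623 CPM, the last highest in both Coch + Tmx P33 libraries. A neuronal list added after values were seen summed to 5.7 to 1669 CPM, highest in Coch P33. In the marker-rich cells these ranges were narrower for osteoblast genes, 30.6 to 145 CPM, and for neuronal genes, at most 75.9 CPM. The range was not narrower for macrophage genes, 46.3 to 647 CPM. Erythroid and glial genes still reached 20989 and 1592 CPM there. The part of these transcripts in the comparisons below was not tested, and the calls in marker-rich cells are given beside the results.

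Of the chosen genes, Emilin2, an elastin interface glycoprotein, Rarres1, a retinoid-responsive membrane protein, and Otor were the most abundant. Otor was at 7824 and 5013 CPM in Coch P12, at 2525, 3704 and 2281 CPM in Coch + Tmx P26, at 2548 and 3747 CPM in Coch + Tmx P33 and at 2455 CPM in Coch P33. Rarres1 was at 7123 and 4623 CPM in Coch P12 and at 2562 to 6026 CPM later. The Otor levels of Coch P12 stood above those of all later libraries, and the Rarres1 levels of the 2 ages overlapped. The collagen Col13a1, a transmembrane chain, was at 298 and 248 CPM in Coch P12 and at 41.0 to 70.2 CPM later. Wif1, a secreted Wnt inhibitor, was at 231 and 105 CPM in Coch P12 and at 103 to 215 CPM later. Kcnk3, a leak potassium channel, and Mmp11, a metalloprotease, were at 409 and 303 CPM and at 366 and 249 CPM in Coch P12.

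For comparison at P12, 3 sets of stromal barcodes outside the rule were used: 463 other stromal cells (at least 2 of Col1a2, Col3a1 and Dcn and at most 1 of the 7 transcripts), 418 Aldh1a2 and Ccl11 cells, and 520 Fst, Inmt and Dpep1 cells. In Coch P12 the other stromal cells numbered 86 and 18, and those of replicate 1 included bone cells, with the bone sialoprotein transcript Ibsp at 21350 CPM. A gene was listed when it reached 50 CPM in the higher set and differed at least 2-fold in both Coch P12 libraries. Because the cells were picked by their transcripts, these lists are descriptions with no test. Against the other stromal cells, 78 of 2833 genes were higher (2.75%) and 77 lower (2.72%). Against the Aldh1a2 and Ccl11 cells 84 of 2712 were higher (3.1%) and 97 lower (3.58%), and against the Fst, Inmt and Dpep1 cells 88 of 2827 were higher (3.11%) and 160 lower (5.66%). Relative to all 3 sets together, 33 of 2494 genes were higher (1.32%) and 18 lower (0.722%). Genes that picked a comparison set stayed in these lists, and Dcn, Col3a1 and Ccl11 were among the 18 lower. Against a set picked by them, their lower level follows from how that set was picked.

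Of the Wnt genes listed, Notum was the one higher than in all 3 sets. Notum, which encodes a secreted enzyme that inactivates Wnt ligands, was at 465 and 244 CPM in the Otor and Rarres1 cells of the 2 Coch P12 libraries. In the other stromal cells it was at 26.2 and 0 CPM (10 and 0 UMIs), in the Aldh1a2 and Ccl11 cells at 36.6 and 5.03 CPM and in the Fst, Inmt and Dpep1 cells at 11.8 and 4.33 CPM. The lowest Notum level in the Otor and Rarres1 cells was above the highest in the other sets. Nkd1, which encodes a Dishevelled-binding Wnt inhibitor, was at 700 and 442 CPM, against 126 and 93.2 CPM in the other stromal cells and 308 and 229 CPM in the Aldh1a2 and Ccl11 cells. Lef1, a factor through which Wnt acts, was at 175 and 76.1 CPM, against 41.9 and 16.9 CPM in the other stromal cells and 68.8 and 42.8 CPM in the Aldh1a2 and Ccl11 cells. Neither Nkd1 nor Lef1 met the limit in both libraries against the Aldh1a2 and Ccl11 cells. Of the 8 Wnt target genes listed, Nkd1 and Lef1 met the 2-fold limit against the other stromal cells, and Notum met it among the 11 Wnt inhibitors. Of the Wnt ligands and receptors 7 were over the level minimum, none was higher, and the ligand gene Wnt6 was lower than in all 3 sets. Macrophage barcodes of the same libraries held Notum at 59.6 and 152 CPM.

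Genes of BMP and TGFβ signalling followed. Smad6, an inhibitory SMAD, was at 99.2 and 99.0 CPM, against 5.24 and 8.47 CPM in the other stromal cells. Bambi, a decoy receptor, was at 393 and 323 CPM, against 157 and 59.3 CPM. Id4, which encodes a dominant-negative helix-loop-helix factor, was at 135 and 122 CPM, against 5.24 and 0 CPM in the other stromal cells and no UMI in the Aldh1a2 and Ccl11 cells of either library. All 3 were above the limit against each of the 3 sets. Of the 11 BMP and TGFβ inhibitors listed, Bambi and Smad6 met it against the other stromal cells, and of the 4 Id genes only Id4 did.

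Most listed matrix genes did not meet the 2-fold limit against the other stromal cells in either direction. Of those over the level minimum, 0 of 5 fibrillar collagens were higher and 1 lower, 1 of 7 other collagens was higher and 1 lower, 1 of 10 elastic fibre genes was higher and 2 lower, and 1 of 6 proteoglycans and glycoproteins was higher and 3 lower. The lower fibrillar collagen, Col3a1, and Dcn among the 3 lower proteoglycans and glycoproteins were used to pick the other stromal cells. Fn1, which encodes fibronectin, was at 681 and 372 CPM against 139 and 93.2 CPM in the other stromal cells, and Col27a1, a fibrillar-type collagen, at 288 and 185 CPM against 34.1 and 42.3 CPM. Lox, a collagen and elastin cross-linking enzyme, was at 347 and 283 CPM against 68.1 and 33.9 CPM, and at 126 and 149 CPM in the Fst, Inmt and Dpep1 cells, where the limit was not met in both libraries. Plod2, a collagen lysine hydroxylase, and Fgfr2, a receptor for fibroblast growth factors, were over 2-fold higher than in all 3 sets, with mean P12 levels of 236 and 128 CPM. Emcn had the highest level of the 33 genes above all 3 sets, at a mean of 1335 CPM against 404, 550 and 414 CPM. On the lower side stood Apod, a lipid-binding secreted protein, at a mean of 959 CPM against 4034, 4854 and 5460 CPM. The basement membrane gene Nid1 was at 12.7 and 16.6 CPM against 68.1 and 144 CPM in the other stromal cells, and the procollagen processing enhancer Pcolce at 17.3 and 37.8 CPM against 147 and 178 CPM. The 20 named genes with the largest ratios also held Dapl1, Nav2, Fabp5, Lypd1, Ogfrl1, Foxq1, Lxn, Notumos, Emb and Pgm2l1. Notumos is transcribed opposite Notum, and reads of such pairs can be told apart only with strand. The 6 named lower genes included the macrophage genes Lyz2, Tyrobp and Ms4a7 besides S100a6. With the marker-rich cells the numbers were 118 and 138, and 77 of the 78 higher and all 77 lower genes stayed listed. Against other stromal cells with none of the 7 transcripts, which were 19 and 2 cells in the 2 libraries, 25 were higher and 141 lower, with 3 and 13 of them in the first lists.

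**Figure D2:**
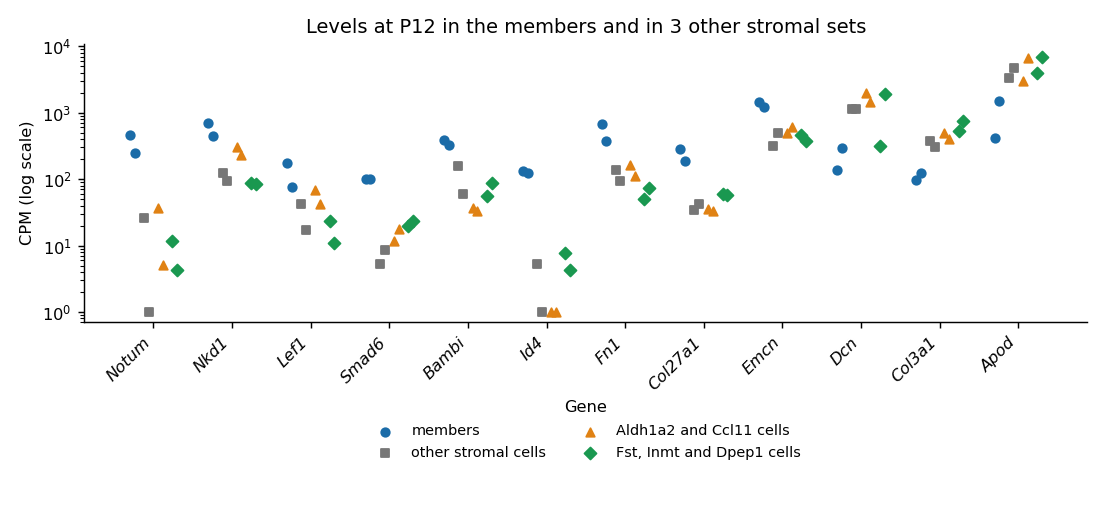
CPM (log axis, values under 1 drawn at 1) of 12 genes in Coch P12 in 4 sets of cells, 1 point per library (n = 2). In the Otor and Rarres1 cells Notum (465 and 244 CPM), Smad6 and Id4 lie above all points of the other sets, and Dcn, Col3a1 and Apod lie below most of them. Dcn and Col3a1 were used to pick the other stromal cells, so their high points in that set follow from the picking.

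The cells overlapped with a neighbouring set. Of 247 barcodes with Notum and Npy transcripts, 211 (85.4%) were Otor and Rarres1 cells, which is 14.8% of the Otor and Rarres1 cells. Of the barcodes picked by Aldh1a2 and Ccl11, 105 of 523 were Otor and Rarres1 cells, and they were left out of that comparison set, as were 89 of the 609 picked by Fst, Inmt and Dpep1.

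Variation among the cells was described in marker-rich cells thinned to 3000 UMIs, 490 and 204 cells in Coch P12 and 27 to 102 in each later library. Shallower cells were left out, 42 of 107 in Coch + Tmx P26 replicate 1 and 0 in Coch P12. Coch varied widely from cell to cell. Its variance was 20.3 and 16.0 times its mean in the 2 libraries, where counting error alone gives a ratio near 1. By the lower of the 2 ratios, the haemoglobin genes Hba-a1 (65.6 and 174.5) and Hbb-bs (30.3 and 116.2) and Malat1 (20.4 and 35.5) ranked above Coch. For Rarres1 the ratios were 17.6 and 10.7, for Otor 12.4 and 8.8, and for Ptn, a heparin-binding growth factor, 11.1 and 8.4. For Otos, a fibrocyte gene, they were 16.5 and 10.2, though only 2.45% and 10.3% of the cells had an Otos UMI. The median cell of Coch P12 had 2 Coch UMIs per 3000 in both libraries, while the 90th percentile was 25 and 16. Cells high in Coch were also high in Lox (Pearson's r across cells 0.59 and 0.54), Rarres1 (0.64 and 0.49), Igfbp6 (0.51 and 0.51) and Clu (0.51 and 0.45). Emilin2 and Rarres1 went together at 0.63 and 0.72, and the cartilage collagens Col2a1 and Col9a1 at 0.47 and 0.40. Apod and Emilin2 went opposite ways at -0.48 and -0.52. The cells of 1 library share its free RNA and preparation, so these values describe each library and carry no p. Rarres1, Otor and Emilin2 are chosen genes, and the marker-rich limit reads the sum of all chosen genes. Ratios and correlations of these 3 therefore follow in part from how the cells were picked. Over the later libraries the Coch and Rarres1 value ranged from 0.27 to 0.65 (median 0.51). The other pairs ranged there from -0.22 to 0.60 for Emilin2 and Rarres1, -0.02 to 0.70 for Coch and Lox, 0.10 to 0.24 for Coch and Igfbp6, -0.002 to 0.43 for Clu and Coch, -0.12 to 0.45 for Col2a1 and Col9a1 and -0.29 to 0.09 for Apod and Emilin2.

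**Figure D3:**
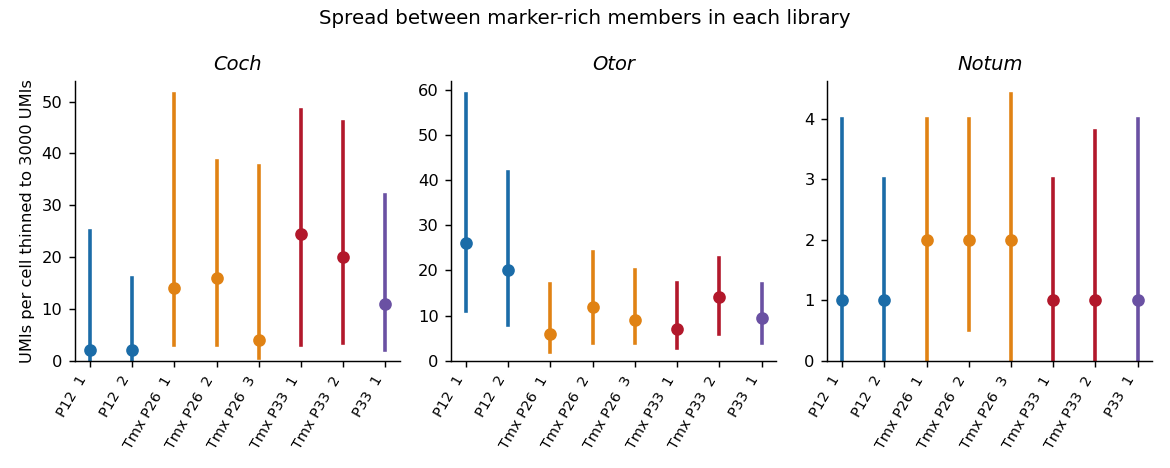
UMIs per cell of Coch, Otor and Notum in marker-rich cells thinned to 3000 UMIs, by library; points are medians and bars run from the 10th to the 90th percentile. The Coch median is 2 in both Coch P12 libraries and 4 to 24.5 in the later ones, while the Notum median stays between 1 and 2. Coch P12 gave 490 and 204 cells and the later libraries 27 to 102 each.

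Age was compared by summing the counts of the Otor and Rarres1 cells per library and testing the 6 later libraries against the 2 of Coch P12 with edgeR's quasi-likelihood test and Benjamini-Hochberg adjustment over all genes. Fibrillar collagens were the listed class with the most genes that fell, and Coch, Apoe and Apod were among the genes that rose. Of 8606 genes, 125 were higher later (1.45%) and 88 lower (1.02%), together 213 (2.48%), counts that leave out the 7 chosen genes. The 2 ages did not overlap for 212 of the 213, against 1228 genes of all tested (14.3%). All 213 had the same sign in each of the 3 later groups, which follows largely from how the 213 were picked. Each group was set against the same 2 Coch P12 libraries, and the share over all genes was not counted. In the marker-rich cells 303 were higher and 240 lower, and 204 of the 213 were called there with 7 of the others not tested. Without Coch P12 replicate 1 the test called 9 higher and 62 lower, and without Coch P12 replicate 2 79 and 79.

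Fibrillar collagens fell: 5 of the 7 tested were lower later and none higher, with a median log2 difference of -2.71 against 0.03 over all genes. Col2a1, the main cartilage collagen, was at 713 and 917 CPM in Coch P12, at 146, 167 and 77.5 CPM in Coch + Tmx P26, at 67.9 and 100.1 CPM in Coch + Tmx P33 and at 37.9 CPM in Coch P33. Every later library was below both Coch P12 libraries, and the difference was -3.05 ± 0.38 on the log2 scale (SE, adjusted p = 0.00235, edgeR). Col11a1, its partner in heterotypic fibrils, was at 623 and 308 CPM in Coch P12 and at 17.4 to 56.0 CPM later, and fell by 3.65 ± 0.31 (adjusted p = 0.000179, edgeR). Col11a2 fell by 3.83, Col5a2 by 2.71 and Col1a2, a type I chain, by 1.94. Col1a2 was at 1828 and 1885 CPM in Coch P12, at 650, 600 and 428 CPM in Coch + Tmx P26, at 406 and 555 CPM in Coch + Tmx P33 and at 243 CPM in Coch P33, again with no overlap. Col3a1 did not pass (log2 difference -1.59 ± 0.55, adjusted p = 0.18, edgeR).

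Collagens of other classes followed in part, with 4 of the 9 tested lower and none higher (median -1.32). Of the 4, 3 were chains of type IX, which coats cartilage fibrils. Col9a1 was at 479 and 499 CPM in Coch P12, at 54.8, 54.5 and 30.1 CPM in Coch + Tmx P26, at 34.0 and 56.8 CPM in Coch + Tmx P33 and at 14.3 CPM in Coch P33. It fell by 3.61 ± 0.33 on the log2 scale (adjusted p = 0.000343, edgeR). Col9a3 was at 104 and 140.0 CPM in Coch P12 and at 0 to 7.47 CPM later, a fall of 4.81 ± 0.37 (adjusted p = 0.000131, edgeR). Both genes were without overlap between the ages, and each kept its call without any 1 library. Col9a2 fell by 1.32, a call lost without Coch P12 replicate 1 (adjusted p = 0.11, edgeR) or replicate 2 (0.094). Col15a1 fell by 3.65. Macrophage barcodes moved the same way, with Col2a1 at a mean of 414 CPM in Coch P12 and 51.7 CPM later, and Col9a1 at 243 and 17.1 CPM. The part of free RNA or of droplets with several cells in these falls was not tested.

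**Figure D4:**
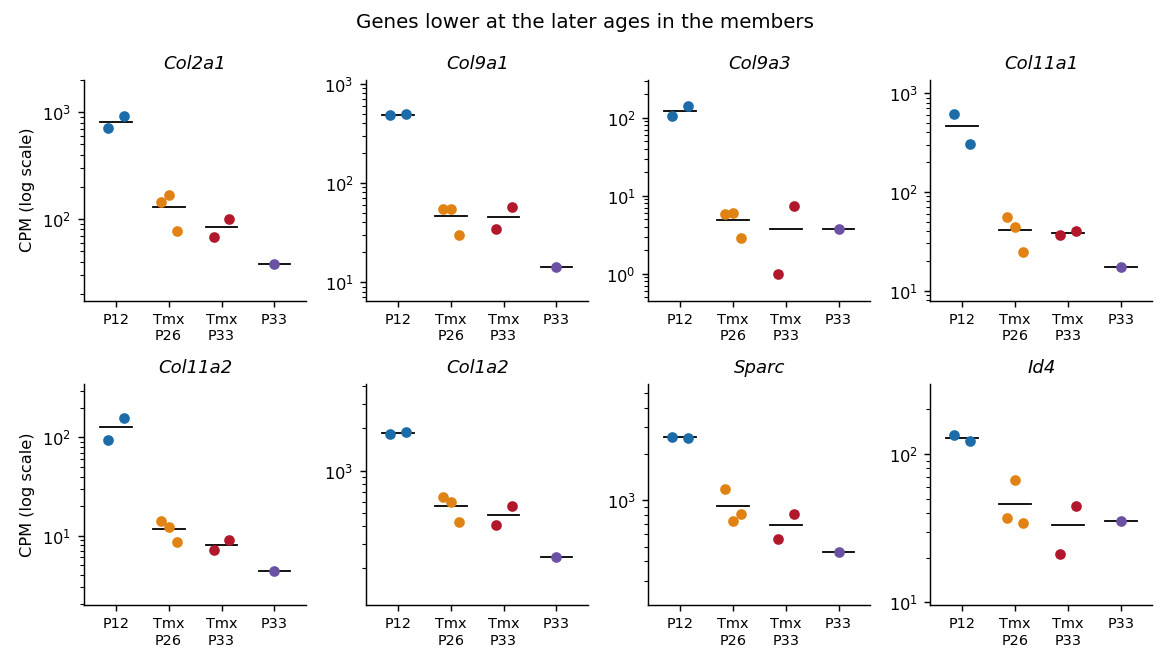
CPM (log axis, values under 1 drawn at 1) of 8 genes that were lower later, in the Otor and Rarres1 cells of each library; each point is a library and each line a group mean. For Col2a1 the Coch P12 points are at 713 and 917 CPM and all later points are at or below 167 CPM.

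Other matrix genes went both ways. Sparc, a collagen-binding matrix protein, was at 2591 and 2543 CPM in Coch P12 and at 460 to 1185 CPM later, a fall of 1.73 ± 0.27 on the log2 scale (adjusted p = 0.00701, edgeR). It was the only one lower of 12 proteoglycans and matrix glycoproteins tested, of which 4, the small proteoglycans Bgn, Ogn and Prelp and the calcium-binding Smoc1, were higher. Prelp, a collagen-anchoring proteoglycan, was at 15.5 and 13.4 CPM in Coch P12, at 72.3, 90.9 and 107.6 CPM in Coch + Tmx P26, at 62.3 and 59.8 CPM in Coch + Tmx P33 and at 89.6 CPM in Coch P33. All later libraries were above both of Coch P12, and Prelp rose by 2.50 ± 0.28 (adjusted p = 0.00116, edgeR), also without any 1 library. Bgn rose by 1.71 and Ogn by 2.42, calls that were lost without Coch P12 replicate 1 (adjusted p = 0.16 and 0.31, edgeR), and for Ogn also without either Coch + Tmx P33 library (0.062 and 0.067). Smoc1 was not called in the marker-rich cells (adjusted p = 0.27, edgeR). Of the 16 elastic fibre genes tested Efemp1 was higher and the microfibril genes Mfap2 and Fbn2 lower, and of the 13 basement membrane genes Lamc1 was lower. Of the 14 proteases and inhibitors Timp3, a metalloprotease inhibitor, was higher and Htra1 and Adamts2 lower. Without Coch P12 replicate 1 the calls of Efemp1, Mfap2, Fbn2, Timp3, Htra1 and Adamts2 were lost (adjusted p 0.087 to 0.19, edgeR), and that of Lamc1 without replicate 2 (0.055). Fn1, whose ages overlapped, differed by 0.05 ± 0.31 and was not called.

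The Wnt and BMP genes described at P12 were mostly not called with age. Notum was at 465 and 244 CPM in Coch P12, at 491, 594 and 379 CPM in Coch + Tmx P26, at 428 and 504 CPM in Coch + Tmx P33 and at 386 CPM in Coch P33. The ages overlapped, with a log2 difference of 0.43 ± 0.23 (adjusted p = 0.41, edgeR). Nkd1 differed by -0.06 ± 0.24 and Lef1 by -0.24 ± 0.26 (adjusted p = 0.94 and 0.74, edgeR). Axin2, a Wnt feedback gene, was at 85.4 and 53.3 CPM in Coch P12 and at 105 to 229 CPM later, a difference of 1.19 ± 0.32 that missed the threshold (adjusted p = 0.082, edgeR) and passed it in the marker-rich cells (0.00637). Of the 8 Wnt targets tested, Nkd2 and Sp5 were higher (log2 difference 0.92 and 1.14). Both of these calls were lost without either Coch P12 library and without several later ones (adjusted p up to 0.31, edgeR). Of the 13 Wnt ligands and receptors tested, the receptors Fzd1 and Lgr6 were higher, and of the 4 Wnt inhibitors Dkk3 was higher and Sfrp4 lower. Without Coch P12 replicate 1 none of these 4 passed (adjusted p 0.079 to 0.40, edgeR).

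Among BMP genes Id4 was at 135 and 122 CPM in Coch P12, at 37.3, 66.6 and 34.4 CPM in Coch + Tmx P26, at 21.2 and 44.8 CPM in Coch + Tmx P33 and at 35.4 CPM in Coch P33. The ages did not overlap, and Id4 fell by 1.67 ± 0.27 (adjusted p = 0.00802, edgeR), or with adjusted p = 0.064 without Coch P12 replicate 1. It was the only one called of the 4 Id genes. Of the 5 inhibitors tested none was called, with Smad6 at -0.11 ± 0.27 and Bambi at -0.29 ± 0.17. Of the 13 ligands and receptors the ligand Bmp2 and the coreceptor Tgfbr3 were higher (1.65 and 1.11), neither of them without Coch P12 replicate 1 (adjusted p = 0.26 and 0.13, edgeR) or replicate 2 (0.064 and 0.16). No gene was called among the 12 of retinoid handling or the 23 mesenchymal transcription factors, where Pou3f4 differed by -0.24 ± 0.18 and Tbx18 by 0.18 ± 0.21. Of the 17 ion transport and gap junction genes, Atp1b2, a sodium pump subunit, was higher, and of the 12 immediate early genes Junb was, both calls lost without Coch P12 replicate 1 (adjusted p = 0.096 and 0.39, edgeR).

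Coch was the fibrocyte marker that rose, 1 of the 5 tested. It was at 1970 and 1875 CPM in Coch P12, at 9136, 5738 and 3873 CPM in Coch + Tmx P26, at 7370 and 6502 CPM in Coch + Tmx P33 and at 3606 CPM in Coch P33. The ages did not overlap, and the rise was 1.67 ± 0.33 on the log2 scale (adjusted p = 0.0243, edgeR). It was lost without Coch P12 replicate 1 or 2 (adjusted p = 0.23 and 0.095, edgeR) and without either Coch + Tmx P33 library (0.051 and 0.0502), and was 1.57 with adjusted p = 0.001 in the marker-rich cells. Coch P33 alone differed from Coch P12 by 0.96 (adjusted p = 0.30, edgeR). Macrophage barcodes held Coch at a mean of 522 CPM in Coch P12 and 1207 CPM later.

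The other genes with the highest later levels among those that rose were Apoe, Apod and Ifitm3, which were chosen after their values were seen. Apoe, a lipid carrier, was at 6487 and 7045 CPM in Coch P12 and at 12040 to 22790 CPM later (log2 difference 1.36 ± 0.28, adjusted p = 0.0273, edgeR). Apod was at 410 and 1507 CPM in Coch P12, at 3990, 3247 and 7144 CPM in Coch + Tmx P26, at 5917 and 5493 CPM in Coch + Tmx P33 and at 5340 CPM in Coch P33. Every later library was above both Coch P12 libraries, which themselves differed over 3-fold, and the rise was 2.42 ± 0.51 (adjusted p = 0.032, edgeR). In the other stromal cells Apod went from a mean of 4034 CPM in Coch P12 to 15310 CPM later. The calls of Apoe and Apod were lost without Coch P12 replicate 1 (adjusted p = 0.28 and 0.13, edgeR) and without Coch + Tmx P26 replicate 3 (0.053 for each) or Coch + Tmx P33 replicate 1 (0.053 and 0.067). Apoe was also lost without Coch P12 replicate 2 (0.08) and Apod without Coch + Tmx P33 replicate 2 (0.062). Ifitm3, an interferon-inducible membrane protein, was at 641 and 574 CPM in Coch P12 and at 1624 to 3697 CPM later. It rose by 2.10 ± 0.31 (adjusted p = 0.00537, edgeR), or with adjusted p = 0.069 without Coch P12 replicate 1.

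The 10 named genes with the largest rises were Ifit1, Isg15, Oasl2, Irf7, C4b, Rtp4, Ifi27l2a, S100a8, Spp1 and Sncg. Ifit1 binds foreign RNA, Isg15 is a ubiquitin-like modifier, and both, like Oasl2, Irf7, Rtp4 and Ifi27l2a, are known as interferon-induced genes, of which no list was counted or tested here. C4b is a complement gene, S100a8 a neutrophil gene, Spp1 the matrix phosphoprotein osteopontin and Sncg a synuclein. Bases upstream of the start of Ifit1, Isg15 and Spp1 are shown from RefSeq promoters of GRCm38.p6, 5′ to 3′ on the strand of each gene, chosen because they are the 3 that held a match to the motif below. Capitals mark the motif of 2 copies of GAAA with 2 bases between them, searched on both strands with overlaps allowed, which is contained in the element that interferon-activated factors bind.
Ifit1: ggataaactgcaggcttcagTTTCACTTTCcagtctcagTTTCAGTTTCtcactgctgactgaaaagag
Isg15: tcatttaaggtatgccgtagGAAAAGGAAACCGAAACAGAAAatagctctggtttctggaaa
Spp1: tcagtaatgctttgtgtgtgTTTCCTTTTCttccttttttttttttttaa
The Ifit1 stretch is chr19:34640765-34640833 (plus strand), the Isg15 stretch chr4:156200855-156200916 (minus strand) and the Spp1 stretch chr5:104434934-104434983 (plus strand). They held 2, 3 and 1 matches, those of Isg15 overlapping. Of 27025 genes with a promoter in the table, 3.463% held a match in the 250 bases before a start, and a match describes the letters only. Among the genes in the age comparison it was 212 of 6650 (3.188%). Of the 20 named genes 13 had a promoter in the table, and the other 10 of these held no match, with too few genes found for a share over the list to be read.

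Ifit1 was at 0.96 and 1.79 CPM in Coch P12, at 4.66, 111 and 118 CPM in Coch + Tmx P26, at 58.0 and 178 CPM in Coch + Tmx P33 and at 63.4 CPM in Coch P33. Isg15 was at 1.76 and 5.15 CPM in Coch P12, at 16.3, 180.2 and 210 CPM in Coch + Tmx P26, at 94.8 and 341 CPM in Coch + Tmx P33 and at 70.9 CPM in Coch P33. Coch + Tmx P26 replicate 1 was the lowest of the later libraries for both genes and still above Coch P12. The rises were 6.01 ± 1.09 and 5.49 ± 1.08 on the log2 scale (adjusted p = 0.0171 and 0.0242, edgeR). Neither passed without Coch P12 replicate 1 (adjusted p = 0.19 and 0.25, edgeR) or replicate 2 (0.072 and 0.073), and Oasl2, Irf7, C4b, Rtp4 and Ifi27l2a did not pass without replicate 1 (0.13 to 0.24). Isg15 went from a mean of 13.2 CPM in Coch P12 to 276 CPM later in macrophage barcodes, from 6.6 to 184 CPM in the other stromal cells and from 4.2 to 342 CPM in the Aldh1a2 and Ccl11 cells. Spp1 was at 32.4 and 41.2 CPM in Coch P12, at 899.8, 230.2 and 409 CPM in Coch + Tmx P26, at 535 and 484 CPM in Coch + Tmx P33 and at 594 CPM in Coch P33. It rose by 3.86 ± 0.49 (adjusted p = 0.00269, edgeR), and this call and that of Sncg (3.56) held without any 1 library. S100a8 rose by 3.88, beside a change in macrophage barcodes from a mean of 5.6 to 749 CPM, and lost the call without Coch P12 replicate 1 (adjusted p = 0.22, edgeR).

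**Figure D5:**
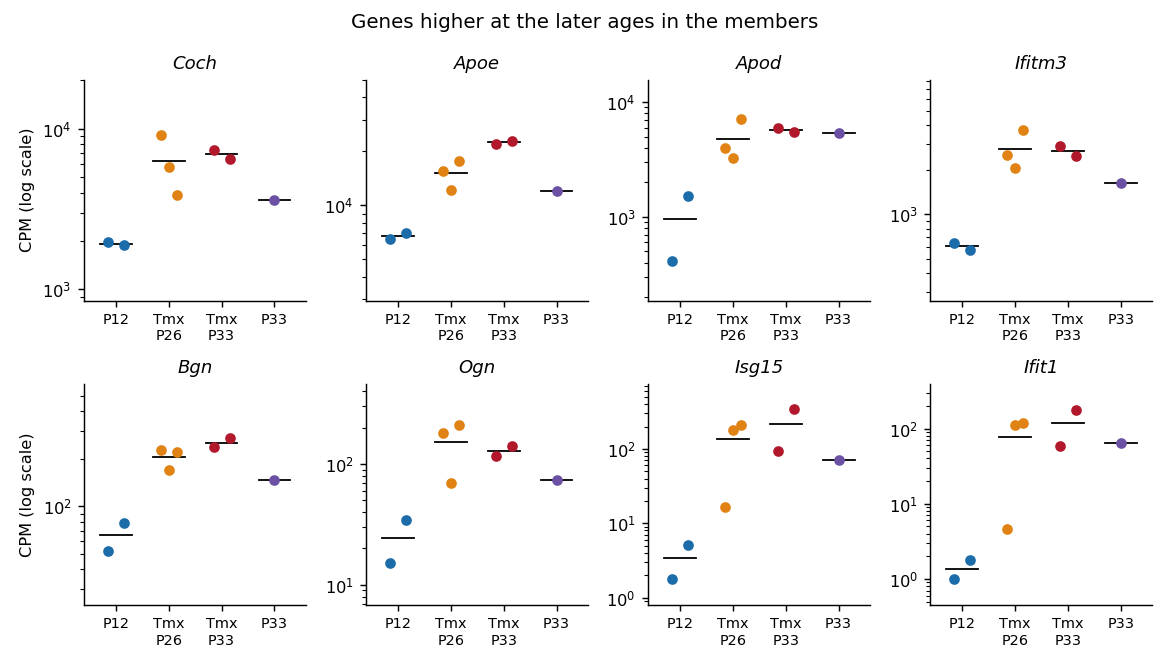
CPM (log axis, values under 1 drawn at 1) of 8 genes that were higher later, in the Otor and Rarres1 cells of each library; each point is a library and each line a group mean. The Coch points of Coch P12 are at 1970 and 1875 CPM and those of later libraries between 3606 and 9136 CPM, and the lowest later point of Isg15 and Ifit1 is Coch + Tmx P26 replicate 1.

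The 10 named genes with the largest falls held 4 collagens, already given, 3 genes of bone and 3 others. Bglap and Bglap2, which encode osteocalcin, were at means of 385 and 293 CPM in Coch P12 and at 0.19 and 0 CPM later. Both share sequence, so counts may be split between them, and neither had enough counts for a test in the marker-rich cells. Ibsp was at 464 and 1420 CPM in Coch P12 and at 0 to 60.6 CPM later, a fall of 5.47 (adjusted p = 0.00953, edgeR), which was 0.055 without Coch P12 replicate 2. Macrophage barcodes held Ibsp at a mean of 648 CPM in Coch P12 and 94.1 CPM later, and in marker-rich cells of Coch P12 it was at a mean of 38.0 CPM. Smim5, Cacng4, a channel subunit of the stargazin family, and Lpar3, a lysophosphatidic acid receptor, fell by 4.81, 4.38 and 4.00 from means of 13.9 to 26.6 CPM, and none of these 3 calls held without Coch P12 replicate 1 (adjusted p = 0.069, 0.35 and 0.18, edgeR). Beyond the named genes, Nrep and Wisp1, chosen after their values were seen, were abundant at P12 and lower later. Nrep was at 651 and 507 CPM in Coch P12 and at 35.4 to 78.9 CPM later, and Wisp1, a secreted CCN protein, at 410 and 347 CPM and then at a median of 91.4 CPM. Both calls held without any 1 library.

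Each later group was also set against Coch P12 in 1 fit of 9530 genes. Coch P33 had 47 higher and 30 lower genes, Coch + Tmx P33 66 and 39, and Coch + Tmx P26 73 and 49. These comparisons share the 2 Coch P12 libraries. Col2a1, Col9a1, Col11a1 and Sparc kept their calls in each.

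Whether the cells changed with age differently from other stroma was tested as the interaction of age and cell set. Relative to the other stromal cells, 1 of 8649 genes passed (0.0116%, edgeR, 475 at an unadjusted p under 0.05), and it was Col9a3. Its level in the other stromal cells was 41.9 and 127 CPM in Coch P12 and 8.06 to 93.6 CPM later, and the fall in the Otor and Rarres1 cells was greater by a log2 difference of -3.90 ± 0.55 (adjusted p = 0.0435). DESeq2 called 10 genes, without Col9a3, and the call was lost without either Coch P12 library (adjusted p = 0.32 and 0.056, edgeR), without either Coch + Tmx P33 library (0.052 and 0.25) and without Coch + Tmx P26 replicate 1 (0.42). In the marker-rich cells it was -5.81 (adjusted p = 0.00072, edgeR).

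Relative to the Aldh1a2 and Ccl11 cells, a comparison added after seeing the data, 32 of 9066 genes passed (0.353%). Aqp1, a water channel, was at 40.1 and 55.5 CPM in the Otor and Rarres1 cells of Coch P12 and at 44.2 to 208 CPM later, while in the Aldh1a2 and Ccl11 cells it was at 61.5 and 60.4 CPM and then at 4.38 to 49.7 CPM. The changes differed by 2.68 ± 0.43 on the log2 scale (adjusted p = 0.00248, edgeR), or with adjusted p = 0.13 without Coch P12 replicate 1. The insulin-like growth factor binding protein Igfbp6 differed by -2.61 and the matrix protein Tnc by 2.70. Id1 and Pcolce differed by 1.44 and 1.47 and Sparc by -0.96. Cd209f, Mobp and Ptgds differed by -8.68, -2.83 and -2.46, and Fst, Map1a and Cxxc4 by 2.69, 3.01 and 4.23. The Cd209f value rests on 1 library, as it was at 364 CPM in the Aldh1a2 and Ccl11 cells of Coch + Tmx P33 replicate 1 and at 0 CPM in those of the other 5 later libraries. In the marker-rich cells Mobp, Ptgds, Fst and Map1a were not called. Of the named genes given here, Aqp1, Igfbp6, Tnc, Cd209f, Mobp, Ptgds, Map1a and Cxxc4 lost the call without 1 of the Coch P12 libraries (adjusted p 0.098 to 0.94, edgeR), Igfbp6, Tnc, Map1a and Cxxc4 also without later libraries, and Fst kept it. Without Coch P12 replicate 1, 13 genes passed in all, and without replicate 2, 15.

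Induction was compared at P33, 2 Coch + Tmx P33 libraries against 1 of Coch P33, whose lone library is assumed to vary like the others. Of 9530 genes 5 passed (0.0525%). Calb2, Slc24a2, Mdga1 and Gjb2 were lower in the Coch + Tmx P33 libraries than in the Coch P33 library and Lyz2, a myeloid lysozyme, was higher, and these calls cannot be told apart from what is particular to that library. Calb2, a calcium-binding protein of neurons, was at 11.3 and 17.9 CPM against 1245 CPM in Coch P33 and at 7.57 to 29.5 CPM in the other 7 libraries, beside neuronal genes that were highest in Coch P33, and Gjb2, the gap junction gene connexin 26, at 2.83 and 7.47 CPM against 188 CPM. Neither was called in the marker-rich cells (adjusted p = 0.76 and 0.83, edgeR), where 4 genes passed, AY036118 (-4.77), Otos (-3.84) and Gm26917 (-2.60) lower and Lyz2 (3.74) higher on the log2 scale. Lyz2 was at 559 and 404 CPM against 25.5 CPM, beside macrophage genes that were highest in both Coch + Tmx P33 libraries. Without either Coch + Tmx P33 library no gene passed (627 and 605 at an unadjusted p under 0.05), while DESeq2 called 55 with all 3 libraries. With Coch + Tmx P33 set against the younger Coch + Tmx P26, 1 of 9530 genes passed (0.0105%, edgeR), again Lyz2, which was at 42.0, 39.4 and 18.7 CPM in Coch + Tmx P26 and missed the threshold without Coch + Tmx P33 replicate 1 (adjusted p = 0.11). In the marker-rich cells the genes called were Lyz2, C1qb, C1qc and Cd74, all expressed by macrophages.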

How the data were processed

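Per the submitters' processing notes, reads were aligned to mm10 with Cell Ranger, whose version is not given in the sources used here. The deposited values are raw UMI counts per gene and barcode, in 1 filtered matrix of 27998 genes per library, made by the authors with 10x 3′ chemistry. Cells were loaded without a sort, and reads start from transcript 3′ ends. Library totals were 3972800 to 13423524 UMIs and the summed counts of Otor and Rarres1 cells 660375 to 6242861. No 2 libraries shared over 3 barcodes, and none of these was an Otor and Rarres1 cell.

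Of 8061 barcodes, 1954 had under 500 genes and 84 at least 25% mitochondrial UMIs. Of 1655 barcodes with 4 of the 7 transcripts, 233 were removed for Ptprc, Pecam1 or Epcam. Scrublet in scanpy 1.11.5 marked 41 barcodes (7 of them Otor and Rarres1 cells), and doublets were kept, with an alternative that left out the highest scores at 0.8% per 1000 barcodes. Cells were not replicates: counts were summed per library, with at least 10 cells per sum, and tested with edgeR 4.0.16 (quasi-likelihood, TMM, filterByExpr, Benjamini-Hochberg, threshold 0.05) in R 4.3.3. The SE beside an edgeR log2 difference is the size of that difference divided by the square root of the test's F statistic. DESeq2 1.42.0 was an alternative. CPM were scaled to the set's own sum. Intervals are exact binomial (95%) and cover counting error only. The edgeR tests of age and of the interaction were checked on simulated data, drawn for all libraries from the same mean profile with a fixed spread. The simulation held no differences between libraries in free RNA or other cell types, so it does not cover these.

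The cells, gene lists and comparisons were chosen with earlier results of these data known. Named genes were the 20 higher by smaller ratio and 6 lower at P12, the 10 and 10 largest age differences without overlap, the 5 and 5 largest interactions, and list members, of which 2 genes are not reported here. Scoring used python 3.11.15, numpy 2.4.6, scipy 1.17.1 and pandas 2.3.3. Same-numbered libraries correlated at -0.093 to 0.131 in their deviations from group means, so the numbers were not taken as pairs.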

Additional observations from a re-analysis of the deposited data

Results flagged for a closer look

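Age changes that differed between the Otor and Rarres1 cells and another stromal set by the interaction test are collected here, as the change in the Otor and Rarres1 cells minus that in the other set on the log2 scale. Relative to the other stromal cells Col9a3 differed by -3.90. Relative to the Aldh1a2 and Ccl11 cells, 4 named genes changed less or fell more, Cd209f (-8.68), Mobp (-2.83), Igfbp6 (-2.61) and Ptgds (-2.46). Another 5 differed the other way, Aqp1 (2.68), Fst (2.69), Tnc (2.70), Map1a (3.01) and Cxxc4 (4.23). Mobp, Ptgds, Fst and Map1a were not called in the marker-rich cells, and Cd209f, Mobp and Ptgds were not called without Coch P12 replicate 2, the library with the highest glial genes. The Cd209f value rests on Coch + Tmx P33 replicate 1, where the Aldh1a2 and Ccl11 cells had 364 CPM and those of the other 5 later libraries 0 CPM. The part of glial transcripts in these results was not tested.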

How the results depend on the processing

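No result reversed. Of 1303 repeats for 70 results on named genes, 1032 kept the call and 271 kept the direction but missed the threshold. Without Coch P12 replicate 1, 22 kept the call and 42 missed it, and without replicate 2, 33 and 30. The total includes limits of at least 5 and at least 20 cells per library. Each library held at least 52, so these settings repeated the main fit and kept all 55 calls each. The untested lists of genes that differed between cell sets at P12 are not part of these repeats. The share of barcodes in Coch P12 (38.4%) was 53.0% with 3 of the 7 transcripts, 27.8% with 5, 27.7% after thinning and 29.3% for marker-rich cells, and the later share (14.6%) was 24.1%, 7.70% and 9.35% in the first 3 of these. At P12 the 78 higher genes were 25 against other stromal cells with 0 of the 7 transcripts (3 shared; 2 such cells in replicate 2) and 118 for marker-rich cells, and 206 to 209 with 1 library; the 77 lower genes were 141 (13 shared) and 138, 179 against all other barcodes, 168 at 20 CPM, 160 against the Fst, Inmt and Dpep1 cells, and 230 to 510 with 1 library. For age, the 125 higher and 88 lower genes were 259 and 133 with DESeq2, 298 and 301 without a filter, 235 and 180 with 5 of the 7 transcripts, 41 and 38 with P33 alone and 303 and 240 in marker-rich cells. With 3 of the 7 transcripts 72 were higher. The group contrasts gave 47 and 30 (Coch P33), 66 and 39 (Coch + Tmx P33) and 73 and 49 (Coch + Tmx P26), and leaving out 1 library gave 9 to 181 higher and 62 to 110 lower. The interaction with other stromal cells (1 gene) gave 0 with DESeq2 size factors or 3 of the 7 transcripts, 10 with DESeq2, 101 without a filter, 5 with 5 of the 7, 8 with P33 alone, 23 in marker-rich cells and 0 to 5 without 1 library. That with Aldh1a2 and Ccl11 cells (32) gave 61 in marker-rich cells, 21 with DESeq2 and 13 to 46 without 1 library. Induction (5) gave 4 in marker-rich cells, 55 with DESeq2 and 0 to 0 without 1 library, and P33 against P26 (1) gave 11 with DESeq2, 4 in marker-rich cells and 0 to 2. The replicate number as a block gave 155 higher and 103 lower genes for age and 46 for the interaction with other stromal cells; the numbers did not pair the libraries. Unless shown by fewer libraries, the causes were not tested. Settings on marker-rich cells, single groups, other comparison sets, induction and P33 against P26 were chosen after seeing the data. With 2 libraries at P12 and 18 other stromal cells in replicate 2, small differences were not detectable.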
